A study of Mus musculus with 22 samples.

Results

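The genes described here are the well-expressed protein-coding genes of Ly6C hi monocytes sorted from mouse lung, compared between 4 samples taken 3 d after tamoxifen and 4 control samples. A gene was included when its mean reached 10 CPM (counts relative to library size) in either group, which retained 7996 of the 21899 protein-coding genes counted. Of these, 7061 reached 10 CPM in both groups, 174 in control only and 761 at 3 d only. All 7996 passed the filter on low counts, but a gene that passed the level in a single group had to differ between them, so these 174 and 761 genes are given as a description and support nothing. Just inside the level were *Ccdc91* (9.16 CPM in control and 10.01 CPM at 3 d), *Hmcn1* (0.633 and 10.01 CPM) and *Armc3* (7.62 and 10.01 CPM). Just outside it were *Rpusd1* (9.29 and 9.99 CPM), *Haus4* (9.68 and just under 10 CPM) and *Tdp2* (just under 10 CPM in control and 7.14 CPM at 3 d), and 654 protein-coding genes had their higher mean between 8 and 10 CPM against 537 between 10 and 12 CPM.

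The mice carry SP-C I73T, a mutant of surfactant protein C, the small hydrophobic surfactant protein made by alveolar type 2 epithelial cells. All samples are labelled with the genotype SP-CI73T mutant and the strain C57BL/6, and the mice of the study were of both sexes and 8 to 12 weeks old. Samples taken at 3 d follow tamoxifen by a single oral gavage, and the control samples are labelled untreated, where the text of the study describes oil treated mutant mice. In these mice tamoxifen activates an estrogen receptor controlled Flp-O recombinase expressed from Rosa26, which removes a neomycin cassette from the mutant allele, hypomorphic until then, and raises the expression of the mutant protein in the epithelium. The monocytes were sorted from collagenase digests of lavaged and perfused lungs, after lysis of red cells, as CD45+CD11c-CD11b+Ly6C+ cells with alveolar macrophages, eosinophils, Ly6G+ and CD3+ cells excluded (the discussion of the study also calls them CD64-), and polyadenylated RNA was sequenced. The labels do not say whether each sample is 1 mouse or a pool, so all p-values here measure only the spread between samples.

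Ly6C hi or classical monocytes leave the bone marrow through the chemokine receptor CCR2 and enter injured tissue, where they can become macrophages. A second set of monocytes, with little Ly6C and much CX3CR1, depends on the nuclear receptor NR4A1 (Nur77), patrols the inner wall of small vessels and is found in the lung in large numbers. Classical monocytes can convert into the patrolling kind, and genes of both programs can therefore be read in a gate drawn on a graded marker such as Ly6C.

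Read counts on genes summed to 27965140, 22135815, 28789639 and 26721941 in control replicates 1 to 4 and to 20036958, 18659925, 15451460 and 17246717 in 3 d replicates 1 to 4. At this depth 3 counts correspond to 0.104 to 0.194 CPM, a figure that covers counting error only, and every gene described lies far above it in at least 1 group. All 3 d totals were below all control totals, while genes with at least 1 count numbered 24775 to 30865 in control and 40119 to 41134 at 3 d. The genes described held 95.2 ± 0.409% of the counts in control and 89.1 ± 1.17% at 3 d (SD, n = 4), without overlap. These genes were chosen by their level in the same groups, so their share of the counts is a description and is not tested. For the totals and for the genes with at least 1 count the exact permutation p (two-sided) was 0.0286, which no split of 8 samples into equal groups can undercut. Adjusted over the 22 measures taken of the libraries, it was 0.0629. The 10002 protein-coding genes under 0.5 CPM in control had a median of 0 to 0.0175 CPM per exonic kilobase in the control samples and of 0.188 to 0.264 in the 3 d samples. They were chosen as low in control, so their low level there is set by that choice and the contrast is a description. The part of these measures in the results on single genes was not tested beyond the alternatives given in the closing section. Unless stated, values are CPM scaled on well-expressed genes, with replicates 1 to 4 in order, fold changes are 3 d minus control on the log2 scale with n = 4 in each group and SE for standard error. A gene was called when its edgeR q (Benjamini-Hochberg over 22604 genes tested) was under 0.05 and its fold change above 1.5. This q limits the share of false calls over all genes tested, most of whose calls lie outside the genes described, and not their share among these: it reaches unadjusted p-values of up to 0.0242, and of the 1068 genes called here 157 had one above 0.01 and 521 one below 0.001.

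At 3 d after tamoxifen the samples sorted as Ly6C hi monocytes had less RNA of the patrolling program, of 12 of 37 immediate early genes and of both receptors for transforming growth factor beta. They had more of *Tarm1*, *Ccr1*, *F10*, *Vcan*, *S100a6* and the 8 mitochondrially encoded respiratory genes at 10 CPM in both groups. Bulk RNA cannot tell a change in the cells inside the gate from a change in RNA per cell. The call of *S100a6* is lost with TMM scaling over all genes and with DESeq2. Of the 10 well-expressed mitochondrially encoded genes, 4 were called with TMM over all genes and 7 with DESeq2. Of the 12 immediate early genes 10 were at 10 CPM in both groups, and the number that fell is 6 without 3 d replicate 1. *Nr4a1* and *Dusp5*, both called lower, are on the patrolling and the immediate early list. *Ccl24* rose in 3 of the 4 samples, by up to 2 orders of magnitude. Most well-expressed genes moved little. Of the 7996 genes, 705 (8.82%) were called higher and 363 (4.54%) lower, beside 44.2% and 2.11% of all 22604 genes tested. Every 3 d sample was above every control sample for 769 genes (9.62%) and below every control sample for 401 (5.02%), beside 44.4% and 2.27% of all genes tested.

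Among the 7061 genes at 10 CPM or more in both groups, 242 were called higher (3.43%) and 296 lower (4.19%), and 62 and 97 of these changed more than 2-fold. Their median log2 fold change was -0.008, with quartiles at -0.22 and 0.20, beside a median of 0.74 over all genes tested. The 463 other genes called higher and 67 other genes called lower reached 10 CPM in a single group. Scaling moves this balance. With TMM factors over all genes, the median of all genes shifts from 0.74 to 0.25 and that of the 7996 genes from 0.025 to -0.47, and 329 were called higher and 2713 lower. In DESeq2 with its own size factors, which is meant wherever DESeq2 is given alone, the numbers were 410 and 1746 (median -0.34), and with size factors from the well-expressed genes 730 and 387 (median 0.028). In edgeR with upper quartile factors they were 581 and 539 (median -0.069). Calls in the higher direction thus made up 66.0% of all calls with the scaling used here, 10.8% with TMM over all genes, 19.0% with DESeq2 and 51.9% with upper quartile factors. The level sets it too: it was 45.0% among genes at 10 CPM in both groups, and 81.5%, 46.9% or 35.2% with the level at 5, 20 or 50 CPM. Log2 changes from 0 to about 0.5 lie near or below 0 with TMM over all genes, which is not repeated for each gene. Counts of the lists below are those of the scaling used here, and with TMM over all genes or DESeq2 most lists have more genes called lower, as are many genes given below as not called. Each list count stands beside 8.82% called higher and 4.54% lower of the 7996 genes. For list genes at 10 CPM in both groups these shares are 3.43% and 4.19%.

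**Figure D1:**
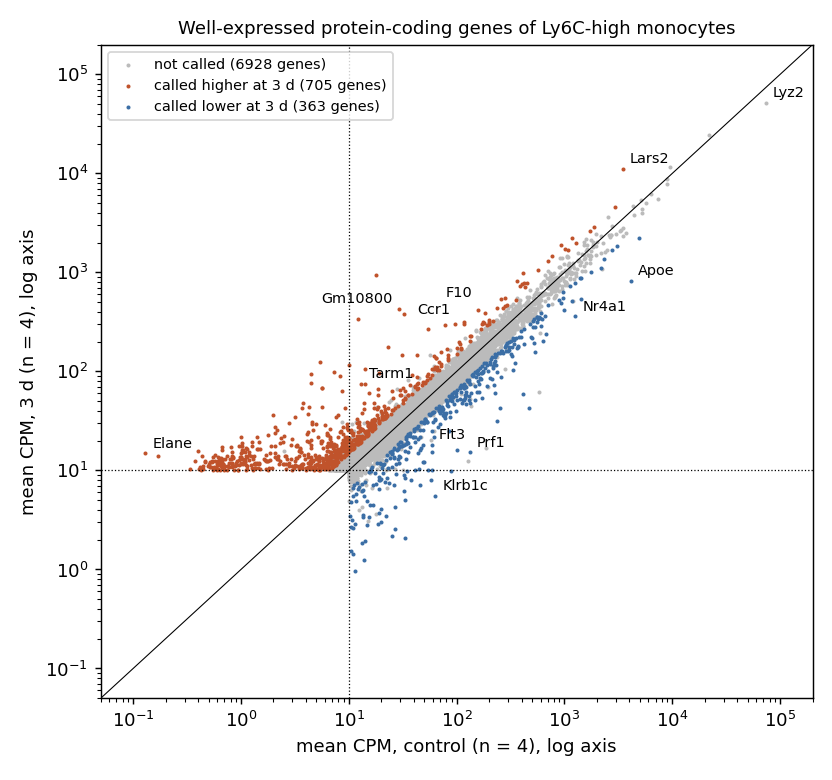
Mean CPM of each of the 7996 genes in control (horizontal, log axis, n = 4) and at 3 d (vertical, log axis, n = 4), with the 705 genes called higher at 3 d, the 363 called lower and the 6928 not called in separate colours, equal means on the diagonal and dotted lines at 10 CPM. Genes at the left and at the bottom passed the level in a single group, and with TMM factors over all genes most calls turn to the lower side (329 higher, 2713 lower).

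Of the 10 genes with the highest CPM only *Lars2* was called. *Lyz2*, for the lysozyme of macrophages and monocytes, had 80933, 86550.0, 72142 and 55749 CPM in control and 49133, 51874, 46716 and 60409 CPM at 3 d, changing by -0.51 (edgeR q = 0.00749) on the log2 scale, under the fold limit. It passed that limit without control replicate 4 (-0.62, edgeR q = 0.00189) or 3 d replicate 4 (-0.59, edgeR q = 0.00896) and with each scaling but library totals. Beta actin (*Actb*, 0.15 (edgeR q = 0.269)), thymosin beta 4 (*Tmsb4x*, 0.27 (edgeR q = 0.0538)), the chitinase-like protein *Chil3* (-0.028 (edgeR q = 0.936)), prosaposin (*Psap*, -0.21 (edgeR q = 0.34)), ferritin light chain (*Ftl1*, -0.026 (edgeR q = 0.907)), *Ifitm3* (-0.19 (edgeR q = 0.28)) and glutathione peroxidase 1 (*Gpx1*, 0.085 (edgeR q = 0.649)) were not called, though *Psap* (-0.71) and *Ifitm3* (-0.69) were called lower with TMM over all genes. With that scaling or DESeq2 *Actb*, *Tmsb4x* and *Gpx1* lay below 0, *Gpx1* also with upper quartile factors. *H2-D1* is described with antigen presentation. *Lars2*, which encodes the mitochondrial leucyl-tRNA synthetase, had 1373, 2539.7, 6164 and 3802 CPM in control and 12835, 14327, 12675 and 5001 CPM at 3 d (log2 fold change 1.69, SE 0.48, edgeR q = 0.0115), so that 3 samples at 3 d lay above all control samples and replicate 4 lay among them.

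Defining markers of classical monocytes were present at high level in all 8 samples. *Ly6c2*, which encodes the antigen used for the sort, had 2842, 2397, 2246 and 2585 CPM in control and 3241, 3355, 4295 and 3696 CPM at 3 d. The *Ly6c2* log2 fold change was 0.53 (SE 0.15, edgeR q = 0.00789). All 3 d samples were above all control samples, at a fold below the limit of 1.5 that was passed without control replicate 1 (0.60) and without 3 d replicate 1 or 2 (0.59 in each), while with TMM over all genes the change was 0.04 (edgeR q = 0.838). *Ccr2*, the receptor for the chemokine CCL2, had 2463, 1904, 868 and 781 CPM in control and 1415, 1480.0, 854 and 1667 CPM at 3 d. The *Ccr2* log2 fold change was -0.15 (SE 0.35, edgeR q = 0.761). Its 4 control samples spread over a wider range than the 3 d samples, which lie inside it. *Itgam* (CD11b, -0.17 (edgeR q = 0.436); it shares 3450 exonic bases with *Gm49368* on the same strand), *Plac8* (0.095 (edgeR q = 0.675)), *Cd14* (-0.039 (edgeR q = 0.879)), *Fcgr1* (CD64, -0.16 (edgeR q = 0.368)), *F13a1* (0.026 (edgeR q = 0.954)), *Fn1* (-0.22 (edgeR q = 0.599)), *Cd44* (-0.28 (edgeR q = 0.265)), *Tyrobp* (-0.20 (edgeR q = 0.259)), *Fcer1g* (-0.15 (edgeR q = 0.361)) and *S100a4* (0.56 (edgeR q = 0.00484)) were not called.

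Of these 18 identity genes 2 rose and 2 fell, with a median of -0.15. The median was 0.025 over the 7996 genes and 0.74 over all genes tested. *Vcan*, for the matrix proteoglycan versican, had 97.5, 44.4, 51.4 and 54.5 CPM in control and 162, 164, 149 and 105 CPM at 3 d. The *Vcan* log2 fold change was 1.22 (SE 0.23, edgeR q = 0.000933). *S100a6*, a calcium-binding protein, had 985, 1052, 1075 and 921 CPM in control and 1529, 1683, 1999 and 1637 CPM at 3 d. The *S100a6* log2 fold change was 0.76 (SE 0.13, edgeR q = 0.000754). The groups do not overlap for either gene, and the call of *S100a6* is lost with TMM over all genes and with DESeq2. *Csf1r*, the receptor for the growth factor of macrophages, had 3817, 3765, 2693 and 2095 CPM in control and 1295, 1749, 1675 and 2643 CPM at 3 d. The *Csf1r* log2 fold change was -0.75 (SE 0.22, edgeR q = 0.0122). *Ptprc* (CD45) had 1844, 1241, 962 and 1604 CPM in control and 783, 917, 784 and 1061 CPM at 3 d. The *Ptprc* log2 fold change was -0.67 (SE 0.20, edgeR q = 0.0114). For both genes 3 d replicate 4 is the highest of its group and lies among the control samples, and without control replicate 1 *Ptprc* was not called (-0.52). Without control replicate 1, or without 3 d replicate 1, the genes called higher numbered 4, with *Ly6c2* and *S100a4* (0.59 without control replicate 1 and 0.64 without 3 d replicate 1, but 0.06 with TMM over all genes) added.

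The patrolling program fell as a group. Of 17 genes on its list, 16 were well expressed. Of these 13 were called, all lower, with a median of -1.55, beside 0.025 over the 7996 genes and 0.74 over all genes tested. Of the 13 at 10 CPM in both groups (median -1.48) 10 were called, and the other 3 reached it in control only. No list member rose in edgeR, 15 were lower and none higher at an unadjusted p under 0.05, and DESeq2 called 15 lower and 0 higher with either set of size factors. The median stayed negative under each scaling (-2.06 with TMM over all genes, -1.91 with DESeq2, -1.62 with upper quartile factors). Among markers of other cells, given below, 10 of 11 NK cell genes and 4 of 12 alveolar macrophage genes were also called lower. At 10 CPM in both groups these falls numbered 6 and 0. Neither list had a gene called higher, while 6 of 10 neutrophil genes were, 3 of them at 10 CPM in both groups. The part of these cells in the fall of the patrolling list was not tested. *Nr4a1* (ENSMUSG00000023034, chromosome 15, 101254269 to 101274795 on GRCm38), the nuclear receptor on which patrolling monocytes depend, had 1309, 1572, 948 and 1211 CPM in control and 323, 373, 275 and 482 CPM at 3 d. The *Nr4a1* log2 fold change was -1.79 (SE 0.23, edgeR q = 0.000186). All its 3 d samples were below its lowest control sample by a wide margin. *Cx3cr1*, the fractalkine receptor, had 1045, 655, 492 and 529.8 CPM in control and 200.5, 211, 165 and 378 CPM at 3 d (log2 fold change -1.51, SE 0.27, edgeR q = 0.000819), and the groups do not overlap. *Treml4*, a receptor of the TREM family that marks the patrolling subset, had 280.4, 264, 376 and 414 CPM in control and 51.02, 111, 70.9 and 176 CPM at 3 d. The *Treml4* log2 fold change was -1.71 (SE 0.32, edgeR q = 0.00101).

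*Adgre4*, an adhesion receptor of the EGF-TM7 family, had 623, 459.8, 382 and 668 CPM in control and 65.9, 174, 106 and 289.6 CPM at 3 d. The *Adgre4* log2 fold change was -1.75 (SE 0.37, edgeR q = 0.00194). In *Cx3cr1*, *Treml4* and *Adgre4* alike, replicate 4 is the highest of the 3 d samples, still below all controls. *Itgal*, the CD11a chain of the integrin LFA-1, had 901, 818, 956 and 1003 CPM in control and 349.8, 456, 418 and 752 CPM at 3 d. The *Itgal* log2 fold change was -0.90 (SE 0.22, edgeR q = 0.00423). The dual specificity phosphatase *Dusp5* (-1.86 (edgeR q = 0.0129)) fell by most but reached 10 CPM in control only, as did *Pparg*. *Pparg* is also on the list of alveolar macrophage markers, given below. Named after their values were seen, *Ceacam1* (-1.20 (edgeR q = 0.00135)), *Spn* (CD43, -1.21 (edgeR q = 0.00383)), *Eno3* (-1.48 (edgeR q = 0.00268)) and *Pou2f2* (-0.89 (edgeR q = 0.00323)) fell without overlap, *Ace* (-1.60 (edgeR q = 0.0157)) fell with overlap and was not called without control replicate 4 (-1.28, edgeR q = 0.0586), and *Cd36* (-1.59 (edgeR q = 0.0514)), *Cd9* (-1.43 (edgeR q = 0.0591)) and *Cebpb* (0.12 (edgeR q = 0.805)) were not called. *Cd36* was called with each other scaling and without control replicate 2 (-1.76), 3 d replicate 4 (-1.99) or 14 d replicate 1 (-1.59), and *Cd9* with TMM over all genes, DESeq2 and upper quartile factors and without control replicate 1 (-1.73) or 2 (-1.65) or 3 d replicate 3 (-1.83). In bulk RNA, fewer cells of the patrolling kind inside the gate and less of this RNA per cell cannot be told apart.

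**Figure D2:**
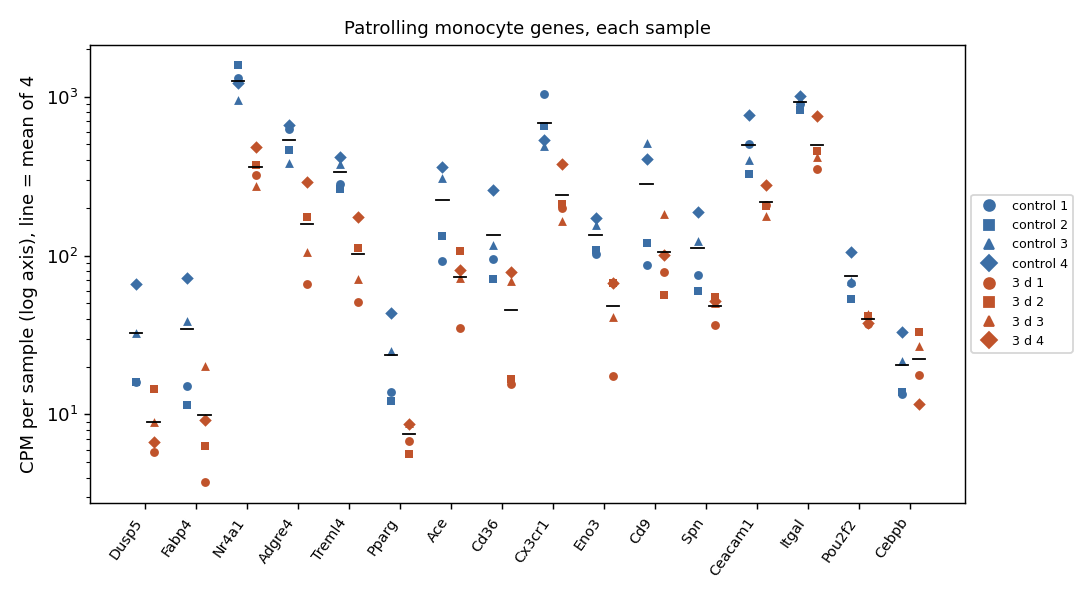
CPM (log axis) in each of the 8 samples for the 16 well-expressed genes of the patrolling list, with control replicates in blue, 3 d replicates in orange, a shape per replicate and a line at the mean of 4. *Nr4a1* lies between 948 and 1572 CPM in control and between 275 and 482 CPM at 3 d, and all genes but *Cebpb* have the lower mean at 3 d, where the median of the list stays negative under each scaling.

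*Fcgr4*, the Fc receptor for IgG2 subclasses that is highest on patrolling monocytes, had 111, 122, 215 and 240.1 CPM in control and 45.5, 56.97, 61.5 and 50.1 CPM at 3 d. The *Fcgr4* log2 fold change was -1.69 (SE 0.24, edgeR q = 0.000297), without overlap. *Cd300e*, an activating receptor of monocytes, had 32.95, 44.3, 57.6 and 101 CPM in control and 5.53, 21.4, 4.40 and 9.01 CPM at 3 d. The *Cd300e* log2 fold change was -2.54 (SE 0.47, edgeR q = 0.00107). Control replicate 4 was the highest and 3 d replicate 2 the highest of its group, below all controls. *Serpinb9*, an inhibitor of granzyme B, had 21.8, 33.01, 56.5 and 67.95 CPM in control and 6.37, 19.7, 5.81 and 9.07 CPM at 3 d. The *Serpinb9* log2 fold change was -2.13 (SE 0.42, edgeR q = 0.00138). In it too 3 d replicate 2 was the highest at 3 d.

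Of 37 well-expressed monocyte transcription factors, 4 fell and 1 rose, and the median was -0.26 (negative under each scaling). *Mef2c*, a MADS box factor of the myeloid and lymphoid lineages, had 144, 120.1, 92.04 and 129 CPM in control and 50.9, 62.9, 57.4 and 61.1 CPM at 3 d. The *Mef2c* log2 fold change was -1.06 (SE 0.18, edgeR q = 0.000628). *Irf8*, which directs monocyte and dendritic cell development, had 454, 622, 692 and 442 CPM in control and 319, 385, 319.7 and 229 CPM at 3 d. The *Irf8* log2 fold change was -0.82 (SE 0.18, edgeR q = 0.00218). *Fli1*, an ETS factor, had 127, 108, 75.9 and 87.4 CPM in control and 62.6, 56.1, 53.2 and 69.97 CPM at 3 d. The *Fli1* log2 fold change was -0.72 (SE 0.17, edgeR q = 0.00293). None of the 3 genes has overlapping groups, and *Irf8* and *Fli1* were named after their values were seen, as was *Klf4*, which patrolling and classical monocytes require. *Klf4* (-0.86 (edgeR q = 0.037)) rested on control replicate 4, at 139 CPM against 45.0 to 60.4 in the others, and was not called without it (-0.39, edgeR q = 0.19) or without 3 d replicate 1 (-0.77), 2 (-0.81) or 4 (-0.76). *Fli1* fell under the fold limit without control replicate 1 (-0.58). *Tfec*, a relative of MITF and TFEB that is restricted to macrophages, had 4.74, 10.4, 9.52 and 7.45 CPM in control and 26.9, 14.5, 54.98 and 48.1 CPM at 3 d (log2 fold change 2.17, SE 0.35, edgeR q = 0.000526), reaching 10 CPM at 3 d only. *Spi1* (PU.1, -0.17 (edgeR q = 0.748)) and *Irf5* (-0.32 (edgeR q = 0.0797)) were not called, and the 8 values of *Spi1* run from 213 to 801 CPM with both groups across most of that range.

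Immediate early genes are switched on within minutes of a stimulus and are also induced when tissue is digested. Of 37 that were well expressed, 12 fell, 10 of them at 10 CPM in both groups, and 2 rose, with a median of -0.51 that stayed negative under each scaling. The number that rose is 1 without 3 d replicate 3, and the number that fell is 6 without 3 d replicate 1, 7 without 3 d replicate 3 and 8 with the near-silent level subtracted, an alternative chosen after seeing the data. *Btg2*, an antiproliferative cofactor of mRNA deadenylation named after its values were seen, had 1372, 1999.9, 987 and 1349 CPM in control and 433, 629, 459 and 643 CPM at 3 d. The *Btg2* log2 fold change was -1.40 (SE 0.21, edgeR q = 0.000352). *Ppp1r15a* (GADD34), the phosphatase subunit that reverses the integrated stress response, had 244, 327, 163 and 224 CPM in control and 82.6, 117, 90.5 and 109 CPM at 3 d. The *Ppp1r15a* log2 fold change was -1.26 (SE 0.20, edgeR q = 0.000517). The groups of both genes lie apart.

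*Fos*, of the AP-1 family, had 3118, 3187, 1676 and 1852 CPM in control and 1584, 1613, 1693 and 1843 CPM at 3 d. The *Fos* log2 fold change was -0.55 (SE 0.19, edgeR q = 0.0286). *Fos* was not called, but was with TMM over all genes, DESeq2 and upper quartile factors and without control replicate 3 (-0.69), control replicate 4 (-0.66) or 3 d replicate 4 (-0.60). *Junb*, of the same family, had 1391, 3541, 2245 and 2209 CPM in control and 1403, 1866, 1451 and 735 CPM at 3 d. The *Junb* log2 fold change was -0.78 (SE 0.28, edgeR q = 0.0311). Its call is lost without control replicate 2 (-0.50), control replicate 4 (-0.80) or 3 d replicate 1 (-0.80), 3 (-0.81) or 4 (-0.57), and control replicate 1 and 3 d replicate 1 are nearly equal. *Dusp1*, chosen after its values were seen, ran from 244 to 1996 CPM in control and from 171 to 1412 CPM at 3 d and was not called (-0.14 (edgeR q = 0.904)). *Ier3*, an early gene of NF-kB signalling, went the other way, with 106, 141, 43.2 and 99.8 CPM in control and 341, 177, 410.0 and 286 CPM at 3 d. The *Ier3* log2 fold change was 1.64 (SE 0.32, edgeR q = 0.00131). All its 3 d samples were above all control samples, replicate 2 least.

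Promoters of immediate early genes often hold the cyclic AMP response element (CRE), TGACGTCA, which reads the same on both strands, so that a single search covers both. In the 250 bases before the transcription start, taken from RefSeq promoters on GRCm38, it was present in 508 of 32851 promoters (1.55%) of all 27025 genes. Of the genes described, 6459 of 7996 had a promoter in this collection, and 220 of their 8313 promoters (2.65%) held it, beside 14 of 738 (1.90%) for genes called higher and 5 of 403 (1.24%) for genes called lower. Among the 37 immediate early genes 31 had a promoter there, and 3 of their 44 promoters (6.82%) held the element: those of *Btg2*, *Ppp1r15a* and *Dusp1*, which were called lower, lower and not at all. A second motif searched, the CArG box (CC, 6 letters A or T, GG), was in 6 of the 44 immediate early promoters (13.6%), those of *Egr2*, *Zfp36* and *Dusp5*. It was in 95 of 8313 promoters (1.14%) of the genes described. *Egr2*, with several overlapping promoters, and *Zfp36* were not called, and *Dusp5* was called lower. A match of either motif describes letters in this window and says nothing on binding. The promoters of the 2 genes with a CRE that fell are shown, 5′ to 3′ on the strand of the gene, with the CRE in capitals. Both lie on the minus strand, at chr1:134079156-134079405 and chr7:45526269-45526518.
Btg2: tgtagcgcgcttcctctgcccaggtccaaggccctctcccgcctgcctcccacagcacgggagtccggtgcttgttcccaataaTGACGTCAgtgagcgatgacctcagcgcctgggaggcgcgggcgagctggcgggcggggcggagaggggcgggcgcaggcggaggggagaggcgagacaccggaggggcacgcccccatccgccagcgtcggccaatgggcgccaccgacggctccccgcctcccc
Ppp1r15a: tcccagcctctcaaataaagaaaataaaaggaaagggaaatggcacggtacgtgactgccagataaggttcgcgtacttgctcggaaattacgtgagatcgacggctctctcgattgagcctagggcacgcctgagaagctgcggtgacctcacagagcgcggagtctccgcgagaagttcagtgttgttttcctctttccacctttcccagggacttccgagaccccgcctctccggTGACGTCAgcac

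Receptors that guide monocytes moved in both directions. Of 28 chemokine receptors and adhesion molecules, 3 rose and 6 fell (3 without control replicate 4), with a median of -0.26 that was negative under each scaling. *Ccr1*, a receptor for CCL3, CCL5, CCL6, CCL7 and CCL9, had 105, 131, 153 and 78.2 CPM in control and 348, 159, 314 and 453 CPM at 3 d. The *Ccr1* log2 fold change was 1.45 (SE 0.27, edgeR q = 0.000968). The 3 d samples were all above the controls, replicate 2 only just. *Cxcr2*, the receptor of neutrophils for CXCL1 and CXCL2, rose by 2.58 (edgeR q = 0.0115) but reached 10 CPM at 3 d only. *S1pr5*, a sphingosine phosphate receptor that lets NK cells and patrolling monocytes leave the bone marrow, had 11.8, 21.96, 82.6 and 81.2 CPM in control and 13.6, 23.9, 8.14 and 3.52 CPM at 3 d. The *S1pr5* log2 fold change was -2.004 (SE 0.68, edgeR q = 0.0286). Control replicates 3 and 4 were high and the other 6 samples at 3.52 to 23.9 CPM, and its call was lost without control replicate 3 (-1.64), control replicate 4 (-1.65) or 3 d replicate 1 (-2.05), 3 (-1.83) or 4 (-1.68). *Itgb2* (-0.37 (edgeR q = 0.0421)), the beta 2 chain of both LFA-1 and Mac-1, was not called.

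Among 30 chemokines and cytokines, 11 rose and 4 fell, and 7 of the 11 reached 10 CPM at 3 d only. Without 3 d replicate 3, 7 rose and 2 fell. The median was 0.12 (-0.194 for the 22 at 10 CPM in both groups), and it is -0.38 with TMM over all genes and -0.25 with DESeq2. *Ccl24* (eotaxin 2, ENSMUSG00000004814), which recruits eosinophils, had 9.26, 51.3, 3.06 and 7.81 CPM in control and 172, 26.4, 2107 and 1442 CPM at 3 d. The *Ccl24* log2 fold change was 5.72 (SE 1.37, edgeR q = 0.00564). The rise is carried by 3 d replicates 1, 3 and 4, while replicate 2 lies between the 2 highest control samples. *Ccl7* and *Ccl2*, ligands of CCR2 named after their values were seen, show the same order of the 3 d samples. *Ccl7* had 3.05, 13.8, 1.02 and 3.56 CPM in control and 64.1, 8.04, 268 and 158 CPM at 3 d. The *Ccl7* log2 fold change was 4.55 (SE 1.04, edgeR q = 0.00431). *Ccl2* had 42.1, 29.5, 26.5 and 25.2 CPM in control and 133, 31.1, 269 and 149.9 CPM at 3 d. The *Ccl2* log2 fold change was 2.24 (SE 0.50, edgeR q = 0.00325). Replicate 2 at 3 d was again within the control range. *Ccl6* (3355, 3245, 3912 and 3318 CPM in control and 1947, 1889, 2649 and 2776 CPM at 3 d), a ligand of CCR1, was lower in all 3 d samples at a log2 fold change of -0.58 (edgeR q = 0.00401) just under the fold limit, which was passed without control replicate 1 (-0.59), 2 (-0.60) or 4 (-0.60) or 3 d replicate 3 (-0.65) or 4 (-0.68). *Ccl6* was also called lower with TMM over all genes (-1.08), library totals (-0.60), upper quartile factors (-0.67) and DESeq2 (-0.94). *Ccl9* (-0.017 (edgeR q = 0.926)) was not called.

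Of 39 genes on the matrix list, 12 rose, 9 of them at 10 CPM in both groups, and 6 fell, with a median of 0.15 (-0.028 for the 33 at 10 CPM in both groups) that is -0.35 with TMM over all genes and -0.21 with DESeq2. *Fabp5*, a fatty acid carrier, had 36.1, 74.9, 108 and 90.3 CPM in control and 142, 71.1, 557 and 421 CPM at 3 d. The *Fabp5* log2 fold change was 1.94 (SE 0.58, edgeR q = 0.0148). *Mmp12*, the macrophage elastase, had 0.862, 4.36, 8.82 and 3.85 CPM in control and 17.3, 6.71, 199 and 151 CPM at 3 d (log2 fold change 4.38, SE 1.10, edgeR q = 0.00697) and reached 10 CPM at 3 d only. In both genes 3 d replicate 3 was the highest, replicate 4 second and replicate 2 inside the control range. *Fabp5* and *Mmp12* were named after their values were seen. Among markers of macrophages, given further below, *C1qb*, *Car4* and *Mrc1* also have 3 d replicate 3 highest and 4 second at 3 d, while *Apoe*, *Stab1*, *Chil3*, *Ear1* and *Siglecf* have other orders. *Ccl24*, *Ccl7*, *Ccl2* and *Tfec* above, and *Tarm1* and *Emp1* below, also have 3 d replicate 3 highest and 4 second. The part of macrophages in the rises of these genes and of *Fabp5* and *Mmp12* was not tested. *Lgals3* (galectin 3) rose more evenly, with 1746, 2093, 2084 and 1553 CPM in control and 2775, 2701, 3406 and 2656 CPM at 3 d (log2 fold change 0.63, SE 0.14, edgeR q = 0.00221); its call needs the 1.5-fold limit to be met by a small margin, and it was not called without control replicate 4 (0.55) or 3 d replicate 3 (0.54), nor with TMM over all genes, DESeq2 or upper quartile factors.

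On the falling side of this list were both signalling receptors for transforming growth factor beta. *Tgfbr2* had 112, 163, 137 and 132 CPM in control and 66.8, 63.1, 54.2 and 60.4 CPM at 3 d. The *Tgfbr2* log2 fold change was -1.15 (SE 0.15, edgeR q = 0.000233). *Tgfbr1* had 142, 135, 81.2 and 117 CPM in control and 46.6, 51.2, 47.98 and 71.5 CPM at 3 d. The *Tgfbr1* log2 fold change was -1.13 (SE 0.24, edgeR q = 0.00195). The groups do not overlap in either, *Tgfbr1* by a small margin, and both receptors were named after their values were seen. *Apoe*, the lipid carrier of macrophages and the largest fall of the list, had 2044, 4741, 6302 and 3329 CPM in control and 590.1, 1149, 871 and 691 CPM at 3 d. The *Apoe* log2 fold change was -2.31 (SE 0.40, edgeR q = 0.00078). Its lowest control sample was above its highest 3 d sample. Coagulation factor X (*F10*), a protease that monocytes can make outside the liver, rose with 143, 173, 184 and 130.1 CPM in control and 457, 362, 531 and 328 CPM at 3 d. The *F10* log2 fold change was 1.41 (SE 0.17, edgeR q = 0.000146).

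Further rises without overlap of samples, among genes at 10 CPM in both groups, follow. *Tarm1* (ENSMUSG00000053338, chromosome 7, 3486500 to 3502624), an activating receptor of myeloid cells, had 11.4, 14.8, 14.6 and 11.6 CPM in control and 60.7, 40.8, 108 and 90.8 CPM at 3 d. The *Tarm1* log2 fold change was 2.52 (SE 0.25, edgeR q = 6.41e-05). The lowest 3 d sample was far above the highest control sample. *Emp1*, a membrane protein of the PMP22 family, had 12.2, 15.3, 10.9 and 17.6 CPM in control and 56.6, 21.1, 124 and 95.98 CPM at 3 d. The *Emp1* log2 fold change was 2.41 (SE 0.43, edgeR q = 0.000912). *F11r* (JAM-A), a junctional adhesion molecule used in leukocyte passage, had 12.7, 14.5, 25.1 and 22.2 CPM in control and 85.9, 62.7, 43.97 and 39.3 CPM at 3 d (log2 fold change 1.64, SE 0.31, edgeR q = 0.0011), with 3 d replicates 1 and 2 above replicates 3 and 4, the reverse of *Emp1*. *C1rl*, a protease related to C1r, had 14.2, 18.02, 14.9 and 6.14 CPM in control and 48.95, 52.9, 25.1 and 23.98 CPM at 3 d (log2 fold change 1.51, SE 0.37, edgeR q = 0.00401), with that same order of the pairs.

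Some large rises stand beside the level of the near-silent genes, which was 0.188 to 0.264 CPM per exonic kilobase at 3 d and at most 0.0175 in control. *D10Wsu102e*, with 123179 exonic bases, had 16.8, 18.5, 15.4 and 18.1 CPM in control and 45.5, 43.2, 47.8 and 57.2 CPM at 3 d (log2 fold change 1.49, SE 0.14, edgeR q = 6.12e-05), a difference of 0.254 CPM per exonic kilobase. With the near-silent level subtracted, its log2 fold change was 0.43 and it was not called. *Trio*, a guanine nucleotide exchange factor, had 20.9, 13.04, 16.9 and 23.9 CPM in control and 62.7, 59.4, 84.7 and 60.8 CPM at 3 d (log2 fold change 1.84, SE 0.20, edgeR q = 8.94e-05), a difference of 2.06 CPM per exonic kilobase, and it was called with the level subtracted. The predicted genes *Gm10800* and *Gm10801* lie side by side on chromosome 2 (98662237 to 98667301 across both). *Gm10800* had 47.2, 45.4, 26.4 and 11.1 CPM in control and 279.6, 193, 316 and 749 CPM at 3 d (log2 fold change 3.56, SE 0.73, edgeR q = 0.00236) and *Gm10801* had 15.3, 14.2, 10.5 and 0.617 CPM in control and 98.8, 30.5, 107 and 231 CPM at 3 d (log2 fold change 3.53, SE 1.04, edgeR q = 0.0159), with 3 d replicate 4 highest and control replicate 4 lowest in both.

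Among genes that reached 10 CPM at 3 d only, *Elane* (neutrophil elastase, 0.128 ± 0.0646 CPM in control and 14.9 ± 12.98 CPM at 3 d, SD, n = 4), the eosinophil-associated ribonuclease *Rnase2a* (0.171 ± 0.242 and 14.0 ± 19.8 CPM) and the predicted kinase *Smok2b* (0.401 ± 0.587 and 15.8 ± 7.14 CPM) were among the largest rises. *Elane* was at 32.1 and 17.7 CPM in 3 d replicates 1 and 2 and at 4.74 and 5.01 CPM in replicates 3 and 4.

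Of 22 well-expressed genes for class I presentation 3 fell, with a median of -0.25 that is negative under each scaling; no gene of the list rose in edgeR, where 1 was higher and 5 lower at an unadjusted p under 0.05, or in DESeq2, which called 12 lower, or 3 with size factors from the well-expressed genes. *H2-K1*, a classical class I heavy chain, had 2458, 2733, 2996 and 2767 CPM in control and 1279, 1747, 1867 and 1845 CPM at 3 d. The *H2-K1* log2 fold change was -0.70 (SE 0.13, edgeR q = 0.00113). *H2-D1*, the other, had 6260.4, 8731, 7499.6 and 7233 CPM in control and 4982, 5791, 5874 and 5582 CPM at 3 d. The *H2-D1* log2 fold change was -0.42 (SE 0.12, edgeR q = 0.011). Neither has overlapping groups, and *H2-D1* was under the fold limit, but called with TMM over all genes (-0.92) and DESeq2 (-0.79). *H2-Q6* (60.7, 64.6, 97.98 and 113 CPM in control and 11.3, 35.1, 25.7 and 28.6 CPM at 3 d; log2 fold change -1.74, SE 0.34, edgeR q = 0.00116) and *H2-Q7* (-1.34 (edgeR q = 0.00294), named after its values were seen) are nonclassical heavy chains, close in sequence, so that reads may be divided among them. *B2m*, the light chain common to all, had a log2 fold change of -0.39 (edgeR q = 0.0443) and was not called.

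For class II presentation 1 gene of 14 was called, lower (9 with TMM over all genes, 6 with DESeq2, 4 there with size factors from the well-expressed genes, 3 with upper quartile factors and 0 with the near-silent level subtracted). *Cd74*, the invariant chain, had 4031, 6001, 4536 and 5262 CPM in control and 448, 2224, 2317 and 3846 CPM at 3 d. The *Cd74* log2 fold change was -1.17 (SE 0.43, edgeR q = 0.0407). All 3 d samples were below all controls, replicate 1 most. The call is lost without control replicate 1 (-1.25), 2 (-1.04), 3 (-1.21) or 4 (-1.14), without 3 d replicate 2 (-1.16) or 3 (-1.19), and without 14 d replicate 1 (-1.17), 2 (-1.15), 3 (-1.17) or 4 (-1.17), with edgeR q of 0.0501 to 0.102. The class II chains *H2-Aa* (896, 1593, 1092 and 1231 CPM in control and 74.2, 627, 501 and 835 CPM at 3 d; log2 fold change -1.24, SE 0.50, edgeR q = 0.0588) and *H2-Ab1* (1552, 3148, 2259 and 2011 CPM in control and 172, 1254, 1200.2 and 1662 CPM at 3 d; log2 fold change -1.07, SE 0.49, edgeR q = 0.0921) also have replicate 1 lowest and replicate 4 highest at 3 d and were not called, but were with TMM over all genes and DESeq2, *H2-Aa* also with upper quartile factors. Without 3 d replicate 1 both were called (-0.88 and -0.71) and the list holds 4 genes called lower, and without 3 d replicate 4 *H2-Aa* was called (-1.58) and the list holds 3. The protease *Ctss* (-0.32 (edgeR q = 0.0801)) was not called.

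Of 59 type I interferon-stimulated genes 1 rose and 1 fell (0 and 23 with TMM over all genes, 0 and 13 with DESeq2), with a median of -0.049 that is -0.55 with TMM over all genes, -0.43 with DESeq2 and -0.16 with upper quartile factors. *Ifi209* (349, 296, 180.1 and 304 CPM in control and 336, 439, 529 and 547 CPM at 3 d; log2 fold change 0.71, SE 0.24, edgeR q = 0.0217), a DNA sensor of the IFI200 family, rose and was not called without control replicate 3 (0.55) or 3 d replicate 3 (0.65) or 4 (0.62), nor with TMM over all genes, DESeq2 or upper quartile factors. *Trim25* (-0.60 (edgeR q = 0.00874)), a ubiquitin ligase of the RIG-I pathway, fell and was not called without control replicate 4 (-0.40) or 3 d replicate 4 (-0.56). The number called lower is 2 without control replicate 1, 3 or 4 or 3 d replicate 2 or 4. *Ly6e* (-0.24 (edgeR q = 0.186)) and *Ifi27l2a* (0.21 (edgeR q = 0.281)) were not called. Among 15 interferon-gamma GTPases and their receptors, *Gbp7* (0.74 (edgeR q = 0.0125); not called with TMM over all genes, DESeq2 or upper quartile factors) rose and the receptor chain *Ifngr1* (1452, 1263, 937 and 1358 CPM in control and 707, 692, 605 and 1148 CPM at 3 d; log2 fold change -0.67, SE 0.20, edgeR q = 0.0136) fell, under the fold limit without 3 d replicate 3 (-0.56), while *Ifi47* (0.28 (edgeR q = 0.464)) and *Irgm1* (0.12 (edgeR q = 0.71)) were not called. Of these 15 genes 2 rose without control replicate 4 or 3 d replicate 1, and 3 fell without 3 d replicate 4. Replicates 3 and 4 at 3 d are the highest 2 samples in *Gbp7*, *Ifi47* and *Ifi209*.

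In pattern recognition and NF-kB signalling, 8 of 48 genes fell and 2 rose (1 without control replicate 3 or 3 d replicate 3 or 4), with a median of -0.23, negative under each scaling. *Nfkbid*, a nuclear inhibitor of NF-kB, had 31.4, 43.6, 32.2 and 58.4 CPM in control and 22.9, 19.1, 19.6 and 15.2 CPM at 3 d. The *Nfkbid* log2 fold change was -1.11 (SE 0.26, edgeR q = 0.00344). *Pycard*, the ASC adaptor of inflammasomes, had 195, 217, 230.3 and 149 CPM in control and 346, 355, 357 and 269 CPM at 3 d (log2 fold change 0.75, SE 0.19, edgeR q = 0.00508), with 485 exonic bases shared with *Gm45205* on the other strand. The groups do not overlap in either, and the call of *Pycard* is lost with TMM over all genes and DESeq2. *Nfkbia* (0.092 (edgeR q = 0.638)), a target of NF-kB, was not called. On the apoptosis list 2 of 37 genes rose and 4 fell (2 without 3 d replicate 1). *Pmaip1* (NOXA), a BH3-only protein, had 145, 145, 64.2 and 164 CPM in control and 33.9, 47.1, 58.6 and 83.9 CPM at 3 d. The *Pmaip1* log2 fold change was -1.21 (SE 0.31, edgeR q = 0.00517). *Tnfrsf1b* (TNF receptor 2) had 2203, 2079.9, 1542 and 1219 CPM in control and 800.1, 1022, 762 and 1416 CPM at 3 d. The *Tnfrsf1b* log2 fold change was -0.82 (SE 0.22, edgeR q = 0.00693). In these 2 genes 3 d replicate 4, the highest at 3 d, lies among the control samples.

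The genes of the mitochondrial genome rose together. All 10 well-expressed subunits of oxidative phosphorylation encoded there were called higher, 8 at 10 CPM in both groups (median 0.993) and 2 at 3 d only, with a median of 1.02 that is 0.52 with TMM over all genes, where 4 were called, and 0.64 with DESeq2, where 7 were. *mt-Nd1*, a subunit of complex I, had 998, 935, 743 and 1041 CPM in control and 1778, 1795, 2563 and 1481 CPM at 3 d. The *mt-Nd1* log2 fold change was 1.04 (SE 0.17, edgeR q = 0.000563). *mt-Cytb*, of complex III, had 1251, 1178, 888 and 1391 CPM in control and 2019, 2317, 2779 and 1865 CPM at 3 d. The *mt-Cytb* log2 fold change was 0.93 (SE 0.16, edgeR q = 0.000606). *mt-Co1*, of complex IV, had 3099, 3169, 2384 and 3022 CPM in control and 4711, 4076, 5850.5 and 3789 CPM at 3 d. The *mt-Co1* log2 fold change was 0.66 (SE 0.15, edgeR q = 0.00321). Every 3 d sample was above every control sample in all 3 genes, replicate 3 most. *mt-Co1* fell under the fold limit without control replicate 3 (0.58) or 3 d replicate 3 (0.53) and with upper quartile factors. None of the 3 was called with TMM over all genes, and with DESeq2 *mt-Nd1* was. *mt-Nd6*, the only one of these genes on the light strand, rose by 1.39 and shares 14 exonic bases with *mt-Nd5*. Mitochondrial genes held 0.622 ± 0.0928% of the counts in control and 1.12 ± 0.230% at 3 d (SD, n = 4; exact permutation test, two-sided, p = 0.0286, and 0.0629 adjusted).

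For nuclear genes of the same complexes and of ribosomes, calls stand beside 8.82% called higher of all genes described and 3.43% of those at 10 CPM in both groups. Of 76 nuclear subunits of oxidative phosphorylation, 6 rose (2 to 13 without a library, 2 without 3 d replicate 2, 3 without control replicate 1, 10 without control replicate 2 or 3 d replicate 1, 11 without 3 d replicate 4 and 13 without control replicate 3), and 72 were above 0. Their median of 0.31 turns to -0.18 with TMM over all genes and -0.052 with DESeq2. *Atp5k*, a subunit of ATP synthase, had 52.8, 67.4, 76.9 and 54.01 CPM in control and 91.6, 153, 114 and 86.6 CPM at 3 d. The *Atp5k* log2 fold change was 0.82 (SE 0.21, edgeR q = 0.00565). It was not called with those scalings, and *Atp5b* (0.089 (edgeR q = 0.558)) and *Cox4i1* (0.35 (edgeR q = 0.152)) were not called. Of 80 cytosolic ribosomal proteins 3 rose, with a median of 0.20 that turns to -0.29 with TMM over all genes and -0.16 with DESeq2. *Rpl22l1*, a paralog of *Rpl22*, had 36.3, 37.2, 35.4 and 39.6 CPM in control and 70.6, 82.4, 78.4 and 57.2 CPM at 3 d. The *Rpl22l1* log2 fold change was 0.96 (SE 0.14, edgeR q = 0.000303), and it was not called with TMM over all genes. *Rps14* (0.41 (edgeR q = 0.143)) and *Rplp0* (0.16 (edgeR q = 0.415)) were not called. The number rises to 5 without control replicate 2, 6 without 3 d replicate 1, 9 without control replicate 3 and 11 without 3 d replicate 4. Of 73 mitochondrial ribosomal proteins 4 rose, 3 of them at 10 CPM in both groups (8 without control replicate 3 or 3 d replicate 4), with a median of 0.26 that turns to -0.23 with TMM over all genes and -0.099 with DESeq2.

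Of 60 translation factors 2 rose, 1 of them at 10 CPM in both groups (1 without control replicate 1 or 3 d replicate 2 or 3) and 1 fell (2 without control replicate 2). *Eif1*, which selects the start codon, had 917, 961, 919 and 1089.8 CPM in control and 485, 495, 607 and 634 CPM at 3 d. The *Eif1* log2 fold change was -0.81 (SE 0.12, edgeR q = 0.000384), without overlap. *Eef1a1* (-0.16 (edgeR q = 0.207)) and *Eef2* (-0.28 (edgeR q = 0.189)), the elongation factors, were not called. Of 108 splicing genes 4 rose, among them *Luc7l3* (0.78 (edgeR q = 0.00486); not called with TMM over all genes or DESeq2), and 2 fell, among them *Srsf5* (-0.64 (edgeR q = 0.0148)), which was under the fold limit without control replicate 1 (-0.56) or 4 (-0.52) or 3 d replicate 2 (-0.57) or 3 (-0.58). Without control replicate 4 10 rose and 0 fell, without 3 d replicate 2 1 rose and 0 fell, without 3 d replicate 4 7 rose, and without 3 d replicate 1 or 3 1 fell. Of these genes 12 were higher and 7 lower at an unadjusted p under 0.05 in edgeR with all samples, and DESeq2 called 0 higher and 18 lower, or 4 and 2 with size factors from the well-expressed genes.

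The cytoskeleton list, of actin and its partners, had 3 rises and 2 falls among 50 genes (0 falls without control replicate 1 or 3 d replicate 3, 1 without control replicate 2 or 3 d replicate 1). *Tmsb10*, thymosin beta 10, had 314, 402, 443 and 392 CPM in control and 707, 947, 666 and 604 CPM at 3 d. The *Tmsb10* log2 fold change was 0.92 (SE 0.17, edgeR q = 0.000932). *Capg*, an actin capping protein, had 732, 910.5, 675 and 476 CPM in control and 1444, 925, 1529 and 1278 CPM at 3 d (log2 fold change 0.89, SE 0.19, edgeR q = 0.00221), and the intermediate filament gene *Vim* had 1004, 1114, 1042 and 1129 CPM in control and 1638, 1290.0, 1873 and 1888 CPM at 3 d (log2 fold change 0.64, SE 0.13, edgeR q = 0.00179), both named after their values were seen. All 3 d samples were above all control samples in the 3 genes, 3 d replicate 2 of *Capg* only just. With TMM over all genes and with DESeq2 none of the 3 was called, *Vim* also not with upper quartile factors, and *Vim* was under the fold limit without 3 d replicate 4 (0.58). *Dock2*, the Rac activator of leukocyte migration, fell (log2 fold change -0.78, SE 0.25, edgeR q = 0.0181), but not without control replicate 1 (-0.60) or 3 d replicate 3 (-0.66), and it shares 460 exonic bases with *4930403D09Rik* on the other strand. The list's median was -0.17, negative under each scaling.

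Antimicrobial genes moved in both directions. Of 19 oxidase and antimicrobial genes, 9 rose, 4 of them at 10 CPM at 3 d only, and 2 fell (4 without control replicate 4 or 3 d replicate 4, 1 without 3 d replicate 2), with a median of 0.46 (0.005 for the 15 at 10 CPM in both groups) that is -0.036 with TMM over all genes. *S100a8*, a subunit of the calprotectin of neutrophils and monocytes, had 6.96, 6.69, 39.1 and 63.3 CPM in control and 906, 371, 414 and 28.2 CPM at 3 d (log2 fold change 3.89, SE 1.08, edgeR q = 0.0117), and 3 d replicate 4 lies among the controls. *Lcn2* (lipocalin 2) had 3.73, 3.51, 17.9 and 7.74 CPM in control and 236, 70.9, 36.2 and 18.3 CPM at 3 d. The *Lcn2* log2 fold change was 3.45 (SE 0.82, edgeR q = 0.00506). *Cybb*, the catalytic subunit of the NADPH oxidase, had 3146, 2411, 1676 and 2190.2 CPM in control and 1691, 1512, 1267 and 1926 CPM at 3 d. The *Cybb* log2 fold change was -0.56 (SE 0.19, edgeR q = 0.0243). *Cybb* was not called, but was with TMM over all genes, DESeq2 and upper quartile factors and without control replicate 3 (-0.69) or 4 (-0.59) or 3 d replicate 1 (-0.59) or 4 (-0.67). *Lyz1*, the Paneth cell paralog of *Lyz2*, fell with 340.2, 426, 227 and 229 CPM in control and 134, 189, 158 and 223 CPM at 3 d (log2 fold change -0.80, SE 0.21, edgeR q = 0.00591), although reads of the 2 lysozymes may be divided among them. The 15 neutrophil markers summed to 765, 659.5, 629 and 566 CPM in control and 2220.1, 1213, 1469 and 643 CPM at 3 d (exact permutation test, two-sided, p = 0.0857, adjusted 0.105), with *Csf3r* the largest contributor over the 8 samples together, as meant also below, though *S100a8* was larger in 3 d replicates 1 to 3 (-0.45 (edgeR q = 0.0797) for *Csf3r*; called, lower, with TMM over all genes and DESeq2 and without control replicate 4, -0.61). Replicate 1 is the highest and replicate 4 the lowest 3 d sample in this sum as in *S100a8* and *Lcn2*, and the part of neutrophils in these genes was not tested. Of the 10 that were well expressed 6 rose, 3 of them at 10 CPM in both groups, and 3 without 3 d replicate 1.

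Markers of other cells were present in all 8 samples, and the adjusted p of their sums was 0.0629 or more. The 12 NK cell markers summed to 536, 820.0, 2218 and 1923 CPM in control and 35.5, 605, 81.1 and 95.3 CPM at 3 d (exact permutation test, two-sided, p = 0.0571, adjusted 0.0967), with *Gzma* the largest contributor. Of the 11 that were well expressed 10 fell (6 without control replicate 4). At 10 CPM in both groups were 6 of the 11, all of which fell with all samples in the fit, while the other 5 reached it in control only. *Prf1* (perforin) had 54.1, 100.1, 229 and 147 CPM in control and 2.47, 46.8, 6.61 and 5.43 CPM at 3 d. The *Prf1* log2 fold change was -3.11 (SE 0.87, edgeR q = 0.0117). *Klrk1* (NKG2D) had 45.4, 48.8, 62.4 and 78.96 CPM in control and 4.74, 28.8, 12.5 and 14.7 CPM at 3 d. The *Klrk1* log2 fold change was -1.95 (SE 0.40, edgeR q = 0.00159). Control replicates 3 and 4 were high and 3 d replicate 2 stood above the other 3 d samples at 605 CPM against 35.5 to 95.3 in the sum. *Klrb1c* (NK1.1) and *Klra9* (Ly49I), at 10 CPM in control only, fell by 3.52 and 3.53. The gate as described excluded CD3+ cells and names no marker of NK cells, and 3 d replicate 2 is the highest 3 d sample also for *S1pr5*, *Cd300e* and *Serpinb9*, in which the part of these cells was not tested.

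Red cell genes varied widely within both groups. The 7 erythroid markers summed to 623, 188, 3791 and 911 CPM in control and 26.7, 461, 49.4 and 16.9 CPM at 3 d (exact permutation test, two-sided, p = 0.0571, adjusted 0.0967), with *Hbb-bs* the largest contributor. Of the 5 well-expressed genes of the list 2 were called lower, 1 of them at 10 CPM in both groups, 5 without 3 d replicate 2, 3 without control replicate 2, 1 without 14 d replicate 4 and 0 without any other library. Interstitial macrophage markers summed to 2124, 4849, 6533 and 3485 CPM in control and 732, 1240.2, 1395 and 1001 CPM at 3 d (exact permutation test, two-sided, p = 0.0286, adjusted 0.0629), with *Apoe* the largest contributor; in contrast *C1qb* (15.7, 29.2, 63.3 and 32.5 CPM in control and 27.98, 29.7, 168 and 104 CPM at 3 d) and *Stab1* (3.27, 4.32, 5.87 and 1.92 CPM in control and 16.2, 5.94, 15.7 and 19.9 CPM at 3 d) had higher means at 3 d. *C1qb* was not called, but was without 3 d replicate 1 (1.51) or 2 (1.53), and 3 of the 8 well-expressed genes, at 10 CPM at 3 d only, were called higher (1 without 3 d replicate 3, 5 without 3 d replicate 2). Of these 8 genes 7 lay above 0, all but *Apoe*, with a median of 1.12 that was positive under each scaling.

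Alveolar macrophage markers summed to 13022, 7988, 9751 and 6713 CPM in control and 10147, 5266, 9447 and 11399 CPM at 3 d, nearly all of it *Chil3*, which classical monocytes express themselves. Of the others, *Ear1* had 5.21, 6.69, 73.5 and 46.5 CPM in control and 1.283, 2.97, 3.27 and 0.716 CPM at 3 d (log2 fold change -4.01, SE 0.86, edgeR q = 0.00276) and *Fabp1* fell by 3.57, both at 10 CPM in control only, while *Car4* (8.26, 54.6, 121 and 50.9 CPM in control and 53.05, 16.8, 171 and 88.3 CPM at 3 d) and *Mrc1* (31.98, 30.9, 51.9 and 47.4 CPM in control and 12.2, 7.596, 88.4 and 70.7 CPM at 3 d) were not called. All 12 genes of the list were well expressed, and 4 were called lower and 0 higher, with a median of -1.42. The 6 of them at 10 CPM in both groups had a median of -0.318 and no call. Control replicates 3 and 4 hold most of *Ear1* and of *Siglecf* (3.37, 3.13, 25.5 and 17.4 CPM in control and 3.95, 2.75, 8.14 and 1.01 CPM at 3 d), for an antigen of the excluded macrophages and eosinophils (the study prints its sign on the sorted cells both ways), which was not called, but was, lower, with TMM over all genes, DESeq2 and upper quartile factors and without control replicate 1 (-1.96) or 2 (-1.94) or 3 d replicate 3 (-2.25). *Sftpc*, the gene of surfactant protein C itself, had 40.4, 15.98, 91.02 and 71.4 CPM in control and 10.95, 8.75, 13.1 and 7.64 CPM at 3 d (log2 fold change -2.44, SE 0.53, edgeR q = 0.00262), and control replicates 3 and 4 were again the highest. *Cdh1* (E-cadherin) rose (2.94 (edgeR q = 0.00462)) but reached 10 CPM at 3 d only. The 14 epithelial markers summed to 292, 227, 454 and 653 CPM in control and 383, 337, 330.4 and 317 CPM at 3 d (exact permutation test, two-sided, p = 0.629), with *Hopx* the largest contributor.

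Dendritic cell markers summed to 514, 531.5, 335 and 350.3 CPM in control and 110.0, 188, 258 and 422 CPM at 3 d (exact permutation test, two-sided, p = 0.0857, adjusted 0.105), with *Cd209a* the largest contributor. *Flt3*, the growth factor receptor of dendritic cells and their progenitors, had 53.1, 53.98, 65.7 and 62.9 CPM in control and 14.9, 21.6, 19.2 and 17.1 CPM at 3 d (log2 fold change -1.70, SE 0.18, edgeR q = 9.11e-05), a fall without overlap, and *Cd209a* had 262, 258, 124 and 138 CPM in control and 5.63, 30.9, 39.9 and 201 CPM at 3 d (log2 fold change -1.50, SE 0.77, edgeR q = 0.137). *Cd209a* was not called, but was with TMM over all genes and DESeq2 and without 3 d replicate 4 (-2.95). In *Cd209a* 3 d replicate 1 is the lowest and 4 the highest at 3 d, as in *Cd74* and the class II chains, whose relation to this list was not tested. B cell markers summed to 613, 638, 439 and 385 CPM in control and 491, 388, 331 and 383 CPM at 3 d (p = 0.171), T cell markers to 32.6, 66.4, 142 and 84.4 CPM in control and 20.4, 56.5, 41.4 and 31.3 CPM at 3 d (p = 0.0857), and eosinophil markers to 4.99, 4.74, 28.3 and 19.8 CPM in control and 11.1, 9.52, 23.8 and 10.6 CPM at 3 d (p = 1), all by the exact permutation test. *Lck* (-2.03 (edgeR q = 0.0059)), the 1 well-expressed T cell marker, fell, as did 2 of 3 B cell markers, with *Cd79a* (-1.21 (edgeR q = 0.0104)) among them (1 without control replicate 2 or 3 d replicate 1 or 3). Endothelial markers summed to 73.7, 37.99, 66.98 and 64.7 CPM in control and 83.5, 83.4, 88.4 and 85.4 CPM at 3 d and mast cell and basophil markers to 2.51, 2.04, 3.48 and 2.61 CPM in control and 11.5, 12.1, 13.4 and 12.6 CPM at 3 d (exact permutation p = 0.0286 for each, adjusted 0.0629), the latter with no gene at 10 CPM in a group. Fibroblast markers summed to 20.8, 13.7, 32.8 and 32.5 CPM in control and 31.5, 36.4, 39.9 and 35.3 CPM at 3 d (exact permutation p = 0.0857), again with no such gene, and platelet markers to 32.7, 29.7, 30.3 and 30.2 CPM in control and 38.6, 55.7, 58.8 and 31.5 CPM at 3 d (exact permutation p = 0.0571). No marker list had a gene at 0 in all 8 samples.

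**Figure D3:**
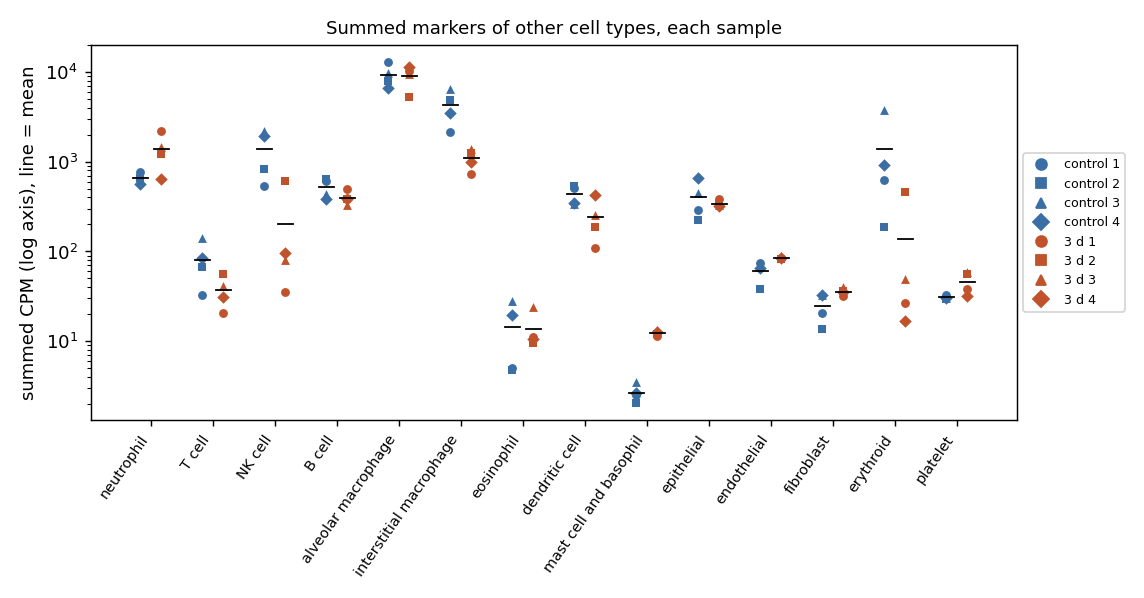
Summed CPM of each list of markers of other cell types (log axis) in the 8 samples, with control replicates in blue, 3 d replicates in orange, a shape per replicate and a line at the mean of 4. NK cell markers lie between 536 and 2218 CPM in control and between 35.5 and 605 CPM at 3 d, where replicate 2 stands above the others, and alveolar macrophage markers are carried by *Chil3*.

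Of 33 heat shock genes only the chaperonin partner *Hspe1* (0.64 (edgeR q = 0.0163)) was called, and not without 3 d replicate 3 (0.46) or control replicate 1 (0.58), nor with TMM over all genes, DESeq2 or upper quartile factors, while *Hspa8* (0.029 (edgeR q = 0.919)) and *Hsp90ab1* (-0.35 (edgeR q = 0.151)) were not. In edgeR 0 fell (2 lower at an unadjusted p under 0.05, 13 with TMM over all genes and 8 in DESeq2, or 0 with size factors from the well-expressed genes), and 1 fell without control replicate 1 or 3 or 3 d replicate 2, 3 or 4. Of 31 genes of the unfolded protein and integrated stress responses 1 rose and 3 fell, 2 of them at 10 CPM in both groups (22 fell with TMM over all genes and 13 with DESeq2), with a median of -0.21 that was negative under each scaling, and 1 fell without 3 d replicate 1 or 3. *Psat1*, of serine synthesis, had 15.1, 17.5, 14.1 and 13.4 CPM in control and 33.5, 22.4, 30.2 and 30.3 CPM at 3 d. The *Psat1* log2 fold change was 0.96 (SE 0.17, edgeR q = 0.000689), without overlap (not called with TMM over all genes), and *Hspa5* (BiP, -0.40 (edgeR q = 0.0775)) was not called, but was with TMM over all genes and DESeq2 and without 3 d replicate 4 (-0.61). No gene of the 27 NRF2 targets was called by edgeR, where 2 were higher and 3 lower at an unadjusted p under 0.05, and DESeq2 called 0 higher and 5 lower, or 0 and 0 with size factors from the well-expressed genes. No proteasome gene of 37 was called by edgeR, with 8 higher and 0 lower at an unadjusted p under 0.05 and 0 called by DESeq2 with either set of size factors. *Psma7* (615, 739, 717 and 555 CPM in control and 964, 1003, 938 and 898 CPM at 3 d; log2 fold change 0.53, SE 0.13, edgeR q = 0.00485) and *Psmb3* (281, 404, 361 and 241 CPM in control and 439, 511, 467 and 435 CPM at 3 d; log2 fold change 0.53, SE 0.16, edgeR q = 0.0158) had all 3 d samples above all controls at folds under the limit, which *Psma7* passed without control replicate 2 (0.60) and *Psmb3* without control replicate 2 (0.66) or 3 (0.59). The proteasome median of 0.18 turns to -0.32 with TMM over all genes and -0.18 with DESeq2.

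Metabolic and housekeeping lists were near the middle of the distribution. In glycolysis 0 of 27 genes rose and 1 fell in edgeR (8 higher and 3 lower at an unadjusted p under 0.05, 0 and 4 in DESeq2, and 0 and 1 there with size factors from the well-expressed genes). Without control replicate 1 or 2 or 3 d replicate 2 1 rose, without control replicate 4 or 3 d replicate 1 or 2 0 fell, and without 3 d replicate 4 2 fell. *Eno1* (0.26 (edgeR q = 0.208)) and *Pkm* (0.40 (edgeR q = 0.0453)) were not called, and the median of 0.10 turns to -0.40 with TMM over all genes and -0.27 with DESeq2. Of 45 lysosomal genes 1 rose, the cathepsin *Ctsl* (71.7, 62.99, 74.8 and 76.5 CPM in control and 139, 91.2, 136 and 103 CPM at 3 d; log2 fold change 0.72, SE 0.18, edgeR q = 0.00551), which shares 1742 exonic bases on the other strand with *Gm47123* and was not called with TMM over all genes or DESeq2, and 1 fell, the lipase *Lipa* (-0.60 (edgeR q = 0.00932)), which was under the fold limit without control replicate 1 (-0.46) or 2 (-0.58) or 3 d replicate 2 (-0.51) or 3 (-0.57), while 2 genes fell without control replicate 4. Of 124 solute carriers 10 rose, 3 of them at 10 CPM in both groups, and 8 fell (4 without 3 d replicate 3). Over all genes described 8.82% were called higher and 4.54% lower.

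Of 28 cell cycle genes 2 rose, both at 10 CPM at 3 d only, and 1 fell (0 without control replicate 4), with a median of 0.12 that is -0.38 with TMM over all genes and -0.24 with DESeq2. *Ccnb2* (cyclin B2) had 0.610, 1.42, 5.38 and 4.36 CPM in control and 58.3, 14.5, 7.01 and 3.52 CPM at 3 d (log2 fold change 2.82, SE 0.95, edgeR q = 0.0273), a rise carried by 3 d replicate 1 that is not called without it (1.501, edgeR q = 0.12), nor without control replicate 1 (2.48), 2 (2.62) or 4 (3.07). Of 7 well-expressed histone genes 3 rose, 1 of them at 10 CPM in both groups. The zinc finger counts that follow stand beside 8.82% called higher and 4.54% lower of all genes described. Of 114 C2H2 zinc finger genes 9 rose, 8 of them at 10 CPM at 3 d only, and 0 fell in edgeR (12 higher and 4 lower at an unadjusted p under 0.05, 6 and 23 in DESeq2, and 10 and 0 there with size factors from the well-expressed genes), while 1 fell without control replicate 1, 2 or 4 and 3 without control replicate 3 or 3 d replicate 4.

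**Figure D4:**
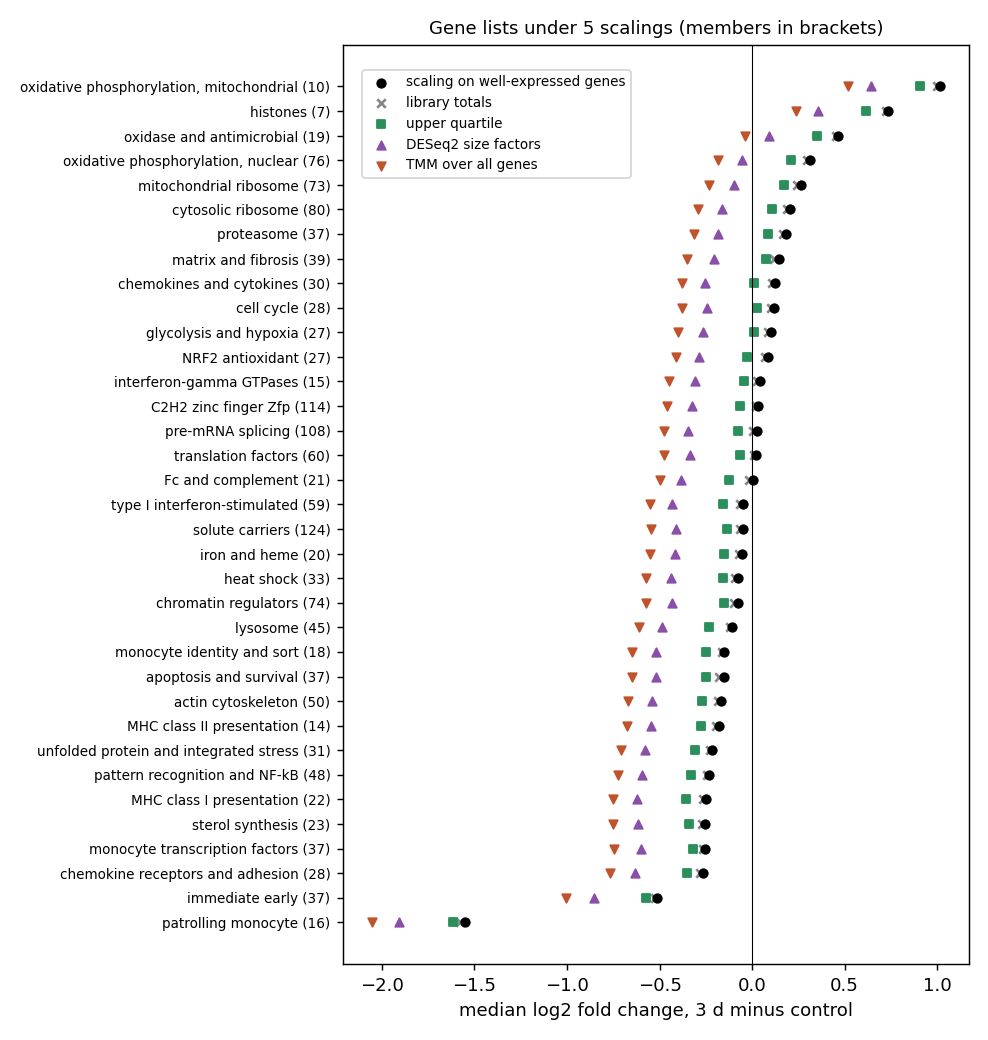
Median log2 fold change (3 d minus control) of the well-expressed genes of each list other than the markers of other cells, with their number in brackets, under 5 scalings given as separate symbols. The patrolling (-1.55) and immediate early (-0.51) lists are lowest and the mitochondrially encoded list (1.02) highest of these under the scaling used here, in that order under all 5. The medians from the antimicrobial list down to the Fc list lie above 0 here and turn negative with TMM over all genes, all but the antimicrobial list also with DESeq2, those from NRF2 down to Fc also with upper quartile factors, and Fc also with library totals. Over genes at 10 CPM in both groups only, the chemokine (-0.194), matrix (-0.028), zinc finger (-0.015) and Fc (-0.147) medians lie below 0.

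Calls are also given by level, without a test. Among genes at 10 CPM or more in both groups, 113 (4.31%) rose and 51 (1.94%) fell of 2623 with a mean of 10 to 30 CPM, 66 (2.37%) and 113 (4.05%) of 2789 at 30 to 100 CPM, 36 (3.11%) and 86 (7.44%) of 1156 in the next band, at above 100 CPM, and 27 (5.48%) and 46 (9.33%) of 493 in the highest. The medians of these bands were 0.076, -0.045, -0.090 and -0.10, and TMM over all genes moves the median of all 7996 genes by more (-0.496). By exonic length, 92 rose and 72 fell among the 1765 genes with the shortest exons in sum (median 0.073), 41 and 79 among the next 1764 (median -0.027), 40 and 71 among the 1766 after these (median -0.050), and 69 and 74 among the 1766 with the longest (median -0.033). Of 204 genes on chromosome X 6 rose and 6 fell (2.94% each), beside 3.43% and 4.19% of all genes at 10 CPM in both groups. Exons shared with other genes, which 2972 of the 7996 genes have, leave counts uncertain since the use of strand is not stated, and without those genes 462 of 5024 rose and 264 fell.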

How the data were processed

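RNA of sorted CD11b+Ly6C hi monocytes was sequenced in 12 samples, 4 of each of control, 3 d and 14 d, and the 14 d samples entered the filter, the choice of genes for scaling and the estimate of spread, and no comparison. The authors deposited a table of read counts per gene (unit: counts), and the submitters' processing notes name STAR 2.7.2c and 2.7.3a, featureCounts 1.6.3 and DESeq2 1.26.0 and 1.28.1 without saying which version made which table. Coordinates are those of GRCm38 (mm10), and 55154 of 55421 gene identifiers matched GENCODE M21.

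Scaling factors (TMM) were taken from the 6903 protein-coding genes with a mean of 10 or more CPM in each of the 3 groups. Genes that passed filterByExpr (22604) were tested with the robust quasi-likelihood F test of edgeR 4.0.16 (limma 3.58.1, R 4.3.3), as 3 d minus control (two-sided), and p-values were adjusted together by Benjamini-Hochberg. A call needs an adjusted p under 0.05 and a fold above 1.5, and the procedure was tested on simulated data, where it recovered most changed genes and also called some unchanged genes. CPM in the text use these factors, and the prior count on the log scale is edgeR's default of 2. Measures of libraries were compared by exact permutation of 4 against 4 samples. DESeq2 1.42.0 served as an alternative, besides other scalings, filters, levels and models and leaving out each library in turn. Promoters are 250 bases upstream of RefSeq transcripts on GRCm38.

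The genes described and the gene lists were chosen with earlier results of these data known. Genes were named by a rule: the 12 called genes per direction with the largest fold among those at 10 CPM in both groups without overlap of samples, 4 per direction among those at 10 CPM in a single group, the 10 with the highest mean CPM, up to 4 per list (largest called change each way and the most abundant), and members of the identity and marker lists. Any other gene is said to have been chosen after its values were seen. Some genes that meet the rule are not reported here, though counts over genes and lists include them. The macrophage samples were not used here.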

Additional observations from a re-analysis of the deposited data

Results flagged for a closer look

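A sample was singled out when its gap to the nearest of its group was large beside the range of the group (Dixon's ratio for 4 samples). Of 128 groups examined, over 64 items, 13 had such a sample, where chance gives about 1 in 20, or 6.4. The items are not independent, as *Prf1* and *Klrb1c* are part of the NK cell sum, so setting 13 beside 6.4 is no test. Of the 13, 7 were in 3 d replicate 2, 3 in 3 d replicate 3, and 1 each in 3 d replicate 4 and control replicates 2 and 4.

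In 3 d replicate 2 the NK cell markers summed to 605 CPM (35.5 to 95.3 in the other 3 d samples), *Prf1* was at 46.8 CPM (2.47 to 6.61), *Klrb1c* at 13.7 CPM (1.68 to 3.67) and *Klra9* at 5.28 CPM (0.691 to 1.40). The erythroid markers of this sample summed to 460.6 CPM (16.9 to 49.4), *Tmsb4x* was at 13284 CPM (11054 to 11141), and its genes with at least 1 count, 40119, were the fewest at 3 d (41039 to 41134).

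In 3 d replicate 3 *Trio* was at 84.7 CPM (59.4 to 62.7), *Ftl1* at 6880 CPM (5890 to 6042) and the eosinophil markers at 23.8 CPM (9.52 to 11.1). *G0s2* was high in control replicate 4, at 81.6 CPM (34.5 to 40.2), and low in 3 d replicate 4, at 4.89 CPM (14.0 to 15.4). *Smok2b* was at 1.281 CPM in control replicate 2 (0.0703 to 0.145).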

How the results depend on the processing

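The median log2 fold change of the 7996 genes, 0.025, became -0.471 with TMM over all genes, 0.010 with library totals, -0.069 with upper quartile factors, -0.337 with DESeq2 and -0.032 with the near-silent level subtracted, an alternative chosen after seeing the data. With the level for inclusion at 5, 20 or 50 CPM it was 0.091, -0.031 or -0.085, and with 10 CPM required in both groups -0.008. With a replicate block, as if equal numbers were paired, it was 0.045. Equal numbers were not more alike than others (mean r -0.181 against 0.061). Leaving out 1 library gave 0.009 to 0.056.

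Genes called higher, 705, became 329 with TMM over all genes, 410 with DESeq2, 419 with a test against the fold limit itself (glmTreat), 462 without genes that share exons, and 1748, 276 or 122 with the level at 5, 20 or 50 CPM, and 242 with 10 CPM in both groups, where the number of genes changes by construction. Genes called lower, 363, became 2713 with TMM over all genes, 1746 with DESeq2, 606 with the adjusted p alone, 140 with glmTreat and 225 at 50 CPM. DESeq2 with size factors from the well-expressed genes gave 730 higher and 387 lower (median 0.028), so its other counts differ from those of edgeR mostly through scaling. Leaving out 1 library gave 606 (without 3 d replicate 3) to 765 higher and 293 to 472 (without 3 d replicate 4) lower.

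Of the 32 genes named for the largest changes, 31 were called in the same direction under each of 25 alternatives, and *D10Wsu102e* was not called with the near-silent level subtracted (0.43). Of the 125 other called genes examined, 46 kept their call under each of the 25, and of 119 not called, 50 stayed so. None of these genes changed direction while called. Depth limits genes at a few counts, while 3 counts are 0.104 to 0.194 CPM and each included gene has a mean of at least 10 CPM in a group.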
